A study of Mus musculus with 4 samples.

Results

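The genes described here are 8 of the 32285 genes in the matrices: Cybb, Cyba, Ncf1, Ncf4 and Rac2, which encode parts of the phagocyte NADPH oxidase, Sod2, Nos2 and Acod1. They were chosen by name, and each was read as CPM, its unique molecular identifiers (UMIs, 1 per captured RNA molecule) for each 1000000 UMIs summed over the class, in marker-gated neutrophils, monocytes, macrophages, dendritic cells (DCs) and lymphoid cells within each sample. The data are 4 single-cell libraries of leukocytes from the colonic lamina propria (LP) of mice, all treated with DSS (dextran sulfate sodium), a polymer that damages the gut epithelium and causes colitis. The study compared wild-type mice with littermates lacking the aryl hydrocarbon receptor (AhR) in every tissue, and its methods describe pooling mice of a group before CD45+ cells were sorted. The labels call the samples rep1 to rep4 and give no genotype, so each sample stands on its own below, no sample was compared with another as a member of a group, and no p-value is given. The labels give the mice as 10 weeks old, while the study's own account of the experiment gives a younger age. No untreated colon was among the samples. All comparisons are between cell classes of the same sample, and their intervals cover counting error only.

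The phagocyte oxidase passes electrons from NADPH to oxygen and makes superoxide. Its membrane part is the pair gp91phox (Cybb) and p22phox (Cyba). On activation cytosolic subunits, among them p47phox (Ncf1, the organizer) and p40phox (Ncf4, which binds a phosphoinositide of the phagosome membrane), join it together with the small GTPase Rac2. Sod2 turns superoxide into hydrogen peroxide in the mitochondrial matrix. Nos2, the inducible nitric oxide synthase, makes nitric oxide from arginine, and Acod1 (also named Irg1) makes itaconate from the citrate cycle intermediate cis-aconitate. Nos2, Acod1 and Sod2 are textbook targets of NF-kB in cells that meet bacterial products, and itaconate inhibits succinate dehydrogenase. In the gut these reactions belong to the antimicrobial output of recruited neutrophils and monocytes.

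In the GENCODE M21 annotation of GRCm38 all 8 are protein-coding genes. Cybb (ENSMUSG00000015340) lies at chrX:9435252-9487771 on the minus strand, Cyba (ENSMUSG00000006519) at chr8:122424776-122432930 on the minus strand and Ncf1 (ENSMUSG00000015950) at chr5:134220053-134229625 on the minus strand. Ncf4 (ENSMUSG00000071715, chr15:78244801-78262580, plus strand) and Rac2 (ENSMUSG00000033220, chr15:78559167-78572783, minus strand) sit on the same chromosome. Sod2 (ENSMUSG00000006818) lies at chr17:13006846-13040063, Nos2 (ENSMUSG00000020826) at chr11:78920787-78960254 and Acod1 (ENSMUSG00000022126) at chr14:103046977-103056573, all on the plus strand. The reads were taken near the 3′ ends of transcripts, so levels were compared between cell classes for 1 gene at a time and not between genes.

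The upstream stretches of 4 members follow, since the classes in which these members were highest differed: Acod1 and Ncf1 (neutrophils), Sod2 (monocytes and neutrophils) and Cybb (monocytes and macrophages). RefSeq sequences on GRCm38.p6 were matched by symbol for 5 of the 8 members (these and Cyba). Each run ends at the RefSeq start or at the first annotated exonic base of a member. Capitals mark matches to 7 motifs searched on both strands: NF-kB (GGG and CC with 5 bases of any kind between), GAS (TTCNNNGAA), ISRE (GAAA and GAAA with 2 bases of any kind between), C/EBP (TTNCNNAA), AP-1 (TGANTCA), PU.1 (GAGGAAG) and the AhR element XRE (GCGTG). The runs are chr14:103046762-103046976 (plus strand, Acod1, 215 bases), chr17:13007589-13007816 (plus, Sod2, 228 bases), chr5:134229626-134229875 (minus, Ncf1, 250 bases) and chrX:9469325-9469574 (minus, Cybb, 250 bases). Those of Sod2 and Cybb fall inside the GENCODE gene spans, ahead of the RefSeq start. None of the 4 holds an annotated exonic base of the 8 members, and exons of other genes were not checked.
Acod1: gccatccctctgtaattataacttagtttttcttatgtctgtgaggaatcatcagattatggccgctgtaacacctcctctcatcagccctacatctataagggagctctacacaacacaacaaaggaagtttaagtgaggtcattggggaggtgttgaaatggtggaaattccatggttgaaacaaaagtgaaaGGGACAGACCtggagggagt
Sod2: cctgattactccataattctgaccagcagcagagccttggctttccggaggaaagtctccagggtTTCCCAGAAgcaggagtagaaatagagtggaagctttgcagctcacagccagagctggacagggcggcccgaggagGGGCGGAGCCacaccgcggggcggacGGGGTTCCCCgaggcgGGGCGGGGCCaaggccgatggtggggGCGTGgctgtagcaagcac
Ncf1: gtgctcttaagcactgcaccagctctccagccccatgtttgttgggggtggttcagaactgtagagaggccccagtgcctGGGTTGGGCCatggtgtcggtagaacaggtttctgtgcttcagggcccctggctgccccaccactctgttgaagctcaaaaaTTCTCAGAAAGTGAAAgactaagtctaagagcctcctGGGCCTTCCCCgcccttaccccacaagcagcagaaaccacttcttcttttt
Cybb: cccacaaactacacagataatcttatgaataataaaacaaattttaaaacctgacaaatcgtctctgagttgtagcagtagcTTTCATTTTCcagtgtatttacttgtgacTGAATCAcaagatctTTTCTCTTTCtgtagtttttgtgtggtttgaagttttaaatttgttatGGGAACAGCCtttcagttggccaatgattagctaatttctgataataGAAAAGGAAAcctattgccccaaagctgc

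Acod1 held 1 NF-kB match in the 250 bases before its start, Sod2 held 3 NF-kB matches, 1 GAS and 2 XRE matches (the second XRE, at -25 to -21, runs past the bases printed), and Ncf1 held 3 NF-kB matches of which a pair overlap, with a GAS match that overlaps an ISRE match. Cybb held 3 ISRE matches, 1 NF-kB and 1 AP-1 match, and Cyba held 4 NF-kB matches. Of 32851 RefSeq promoters of the same length, 45.8% held the NF-kB letters, 28.2% the XRE, 7.02% the GAS, 6.75% the AP-1 and 2.98% the ISRE letters, so NF-kB matches are common and ISRE matches less so. The C/EBP letters (36.8% of promoters) and the PU.1 letters (10.6%) did not occur in these windows. A match describes the letters only.

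Of 45229 cells in the matrices, 43432 had at least 200 genes and under 20% mitochondrial UMIs, and the 4 libraries held between 72509408 and 135516016 UMIs. The gates placed 25751 cells: 5825 neutrophils, 2981 monocytes, 3474 macrophages, 1175 co-positive cells (meeting both the monocyte and the macrophage gate), 645 DCs and 11651 lymphoid cells. A further 11009 cells (25.3%) met gates of unlike classes and were set aside as mixed cells, which is how doublets were treated, with median UMIs of 13468 to 16236 per sample against 6091 to 7464 for all cells kept. Another 5573 cells (12.8%) met no gate and were left out, with lower median UMIs of 1905.5 to 2894 per sample. Outside the gating markers, S100a8 read 53040 to 79050 CPM in neutrophils and 125 to 192 CPM in lymphoid cells. Csf1r read 305 to 452 CPM in monocytes, 425 to 625 CPM in macrophages and 38.0 to 77.0 CPM in neutrophils. Fcgr1 read at most 9.05 CPM in DCs against at least 86.7 CPM in macrophages. H2-Aa and Itgax did not set DCs apart from macrophages. H2-Aa read 2878 to 5135 CPM in DCs and 2506 to 5460 CPM in macrophages. Itgax read 32.5 to 95.5 CPM in DCs and 38.7 to 92.1 CPM in macrophages. Median UMIs per cell ran from 3174 to 6081 in neutrophils and from 9763 to 13719 in DCs, and the smallest sum was that of the DCs of sample 4, 1084913 UMIs from 98 cells. Any 2 libraries shared 0.271% to 0.423% of their cell barcodes.

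Cybb and Cyba, the membrane pair, differed from each other in where they were highest. Cybb read 879, 800, 734 and 844 CPM in the monocytes of samples 1, 2, 3 and 4 and 848, 817, 925 and 977 CPM in the macrophages. In neutrophils it read 213, 116, 159 and 188 CPM, below every monocyte and macrophage value. DCs overlapped neutrophils at 369, 218, 148 and 193 CPM, and the lymphoid sum was 271 and 181 CPM in samples 1 and 2 and 95.2 and 86.3 CPM in samples 3 and 4. Within the lymphoid cells B cells held Cybb at 306 to 385 CPM in every sample and T cells at 27.2 to 45.4 CPM, and B cells made up 2612 of 3653 and 2666 of 5212 lymphoid cells in samples 1 and 2 but 306 of 1337 and 388 of 1449 in samples 3 and 4. Macrophages held Cybb 3.98- to 7.07-fold above neutrophils, and monocytes held it 4.13- to 6.92-fold above them. Monocytes and macrophages overlapped, and their order changed with the sample.

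Cyba was spread over all myeloid classes. Neutrophils held 813, 578, 393 and 510 CPM, monocytes 719, 747, 478 and 456 CPM, macrophages 710, 614, 603 and 414 CPM and DCs 638, 572, 454 and 336 CPM. The 4 myeloid ranges overlapped, and all of them lay above the lymphoid range, which was 246, 244, 228 and 181 CPM. On the CPM scale neutrophils thus carried the p22phox mRNA at the level of monocytes and the gp91phox mRNA at a much lower one. The other scaling described below raises every gene in neutrophils relative to monocytes.

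The cytosolic subunits were led by neutrophils, most clearly Ncf1 and Rac2. Ncf1 read 324, 368, 336 and 492 CPM in neutrophils, 183, 182, 277 and 215 CPM in DCs, 104, 79.5, 48.6 and 64.5 CPM in monocytes and 90.7, 89.3, 44.5 and 57.1 CPM in macrophages. Neutrophils were above DCs, and DCs above monocytes and macrophages, in all 4 samples, and monocytes and macrophages overlapped. Lymphoid cells held 17.0 to 55.8 CPM. Ncf1 was the only member that was lower in macrophages than in DCs by the 2-fold rule, 2.01- to 6.23-fold, with samples 1 (2.01, interval 1.75 to 2.32) and 2 (2.03, 1.74 to 2.37) at the edge of that rule.

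Rac2, the GTPase of the complex, read 880, 832, 577 and 637 CPM in neutrophils, and the next class was the lymphoid one, at 254, 271, 298 and 298 CPM. Monocytes (116 to 229 CPM), macrophages (90.5 to 184 CPM) and DCs (58.9 to 185 CPM) were below both in every sample. T cells held Rac2 at 352 to 383 CPM. Ncf4, the phosphoinositide-binding subunit, was less restricted: neutrophils held 167 to 187 CPM, monocytes 118 to 186 CPM and macrophages 58.4 to 152 CPM, and lymphoid cells 30.0 to 36.7 CPM. Neutrophil and monocyte levels of Ncf4 were close in samples 1 and 2 (187 against 184 CPM and 167 against 186 CPM) and neutrophils were higher in samples 3 and 4 (181 against 118 CPM and 184 against 121 CPM). DCs of samples 3 and 4 held 17.0 and 22.1 CPM, below the lymphoid cells of those samples. The ratio was 0.54 (interval 0.40 to 0.716) in sample 3 and 0.738 (0.467 to 1.12) in sample 4, where the interval includes no difference.

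**Figure D1:**
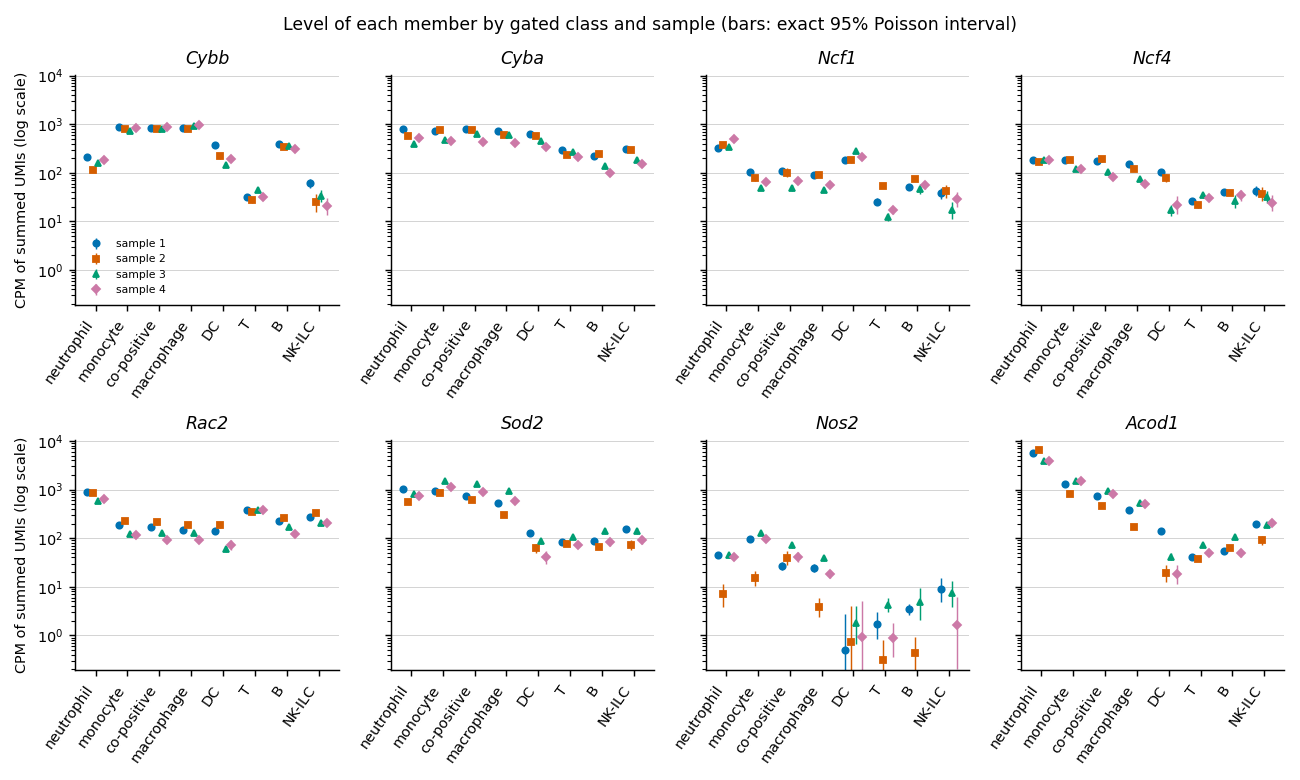
Level of each of the 8 genes (CPM of summed UMIs, log axis, 1 panel a gene) by cell class, with 1 point for each of the 4 samples and exact Poisson 95% intervals; a point at 0 UMIs is not drawn. Acod1 stands highest in neutrophils (3856 to 6418 CPM) in every sample, Nos2 stands higher in monocytes (15.0 to 128 CPM) than in neutrophils or macrophages, and Cybb is low in neutrophils beside monocytes and macrophages.

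Sod2 was high in all 3 inflammatory classes. Monocytes held 941, 863, 1483 and 1113 CPM, neutrophils 1033, 557, 809 and 739 CPM and macrophages 520, 306, 938 and 593 CPM. Monocytes were above macrophages in each sample by 1.58- to 2.82-fold, which fell short of 2-fold in some samples, and they were above neutrophils in 3 of 4 samples. DCs (40.6 to 129 CPM) and lymphoid cells (69.8 to 113 CPM) overlapped and were far below. Sample 3 had the highest Sod2 in monocytes, macrophages and lymphoid cells, and sample 2 the lowest in each of them.

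Nos2 was a rare transcript, higher in monocytes than in neutrophils, macrophages, DCs or lymphoid cells of the same sample. Monocytes held 95.5 CPM (678 UMIs), 15.0 CPM (36 UMIs), 128 CPM (1056 UMIs) and 96.9 CPM (335 UMIs) in samples 1 to 4. Neutrophils held 44.2, 6.94, 45.3 and 41.8 CPM, and macrophages 24.2, 3.84, 38.2 and 18.3 CPM, so the values ran monocyte, neutrophil, macrophage in every sample. In sample 2 neutrophils and macrophages had 15 and 22 UMIs, and the interval of their ratio, 0.872 to 3.65, includes no difference. The ratio in sample 3 was 1.19 (interval 1.02 to 1.38). In sample 2 all 3 classes were low, and its monocytes lay below the neutrophils of the other samples. DCs held 1, 1, 6 and 1 UMIs, and lymphoid cells 84, 10, 55 and 9 UMIs or 0.302 to 4.45 CPM. B cells of sample 4 and NK-ILC cells (natural killer and innate lymphoid) of sample 2 had 0 UMIs, with intervals up to 1.915 and 3.646 CPM. The co-positive cells held 26.8 to 72.8 CPM, between monocytes and macrophages in samples 1, 3 and 4 and above both in sample 2 (39.6 CPM). That value of sample 2 rests on 34 UMIs in 6 of 105 cells. The share of cells with a UMI there was 5.71% (interval 2.13 to 12.0) in co-positive cells and 4.44% (2.61 to 7.01) in monocytes, with overlapping intervals.

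Acod1 was a neutrophil transcript first and a monocyte transcript second. Neutrophils held 5549, 6418, 3856 and 3866 CPM, monocytes 1275, 828, 1525 and 1534 CPM, the co-positive cells 721, 452, 948 and 826 CPM and macrophages 383, 167, 517 and 497 CPM. The neutrophil range stood apart from all others, the other ranges met at their edges, and the order was the same within every sample. Neutrophils were 2.52- to 7.75-fold above monocytes and 7.46- to 38.4-fold above macrophages, the widest gaps being those of sample 2, which had the highest neutrophil and the lowest monocyte and macrophage levels. DCs held 142, 19.2, 41.6 and 18.4 CPM and lymphoid cells 58.3, 48.2, 84.2 and 63.0 CPM.

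The low levels of Acod1 and Nos2 in lymphoid cells were set beside transcripts that these cells should lack. Acod1 in T cells was 0.590% to 1.86% of its neutrophil level and in B cells 0.983% to 2.76%, while the neutrophil transcript S100a8 in the same cells was 0.137% to 0.275% and 0.234% to 0.474% of its own. In NK-ILC cells Acod1 reached 1.40% to 5.39% (90.0 to 208 CPM) against 0.196% to 0.664% for S100a8. Nos2 in T cells was 0.902% to 3.34% of its monocyte level, beside 0.949% to 2.02% for the monocyte transcript Lyz2 in the same cells, and the 2 ranges overlapped. In NK-ILC cells Nos2 was 9.34%, 0%, 5.87% and 1.72% of its monocyte level in samples 1 to 4, from at most 14 UMIs. Other monocyte transcripts in these cells ran from 0.803% to 1.96% (Lyz2) and from 0.911% to 2.72% (Fcgr1) of their monocyte levels. Csf1r was at 5.64%, 2.97%, 7.01% and 2.18%, so Nos2 was above it in sample 1 alone. Whether the Acod1 and Nos2 of lymphoid cells are their own or come from free RNA or doublets was not tested.

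The 8 members were then counted between classes: a gene was called when it was at least 2-fold higher, or lower, in 1 class in 4 of 4 samples, among genes with at least 10 CPM in either class of a sample. Against lymphoid cells, neutrophils held 5 of 8 members higher (Ncf1, Ncf4, Sod2, Nos2 and Acod1) and none lower, where 10.9% of 9179 genes tested were called higher and 46.1% lower. Acod1 was 45.8- to 133-fold higher, Nos2 10.2- to 54.5-fold, Ncf1 6.59- to 20.6-fold, Sod2 7.15- to 11.3-fold and Ncf4 5.10- to 6.13-fold. Rac2 (1.94 to 3.47) and Cyba (1.72 to 3.31) missed the rule through sample 3 alone and were both called without it, and Cybb ran from 0.64 to 2.18. Against T cells alone Cybb was also called (median log2 ratio 2.32).

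Monocytes held 6 members higher than lymphoid cells (Cybb, Cyba, Ncf4, Sod2, Nos2 and Acod1) and none lower, where 12.2% of 9243 genes were called higher and 25.8% lower. Nos2 was 28.7- to 126-fold higher, Acod1 17.2- to 24.3-fold, Sod2 10.3- to 14.8-fold, Ncf4 3.75- to 6.13-fold, Cybb 3.25- to 9.78-fold and Cyba 2.10- to 3.06-fold. Rac2 was the member that ran the other way, at 0.391 to 0.845 of the lymphoid level. Ncf1 (1.42 to 2.85) was called without sample 2. The call of Cyba was lost with a stricter gate of 1 marker more (median log2 ratio 1.40), with mixed cells assigned to a class (0.87) and against T cells alone (1.22).

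Macrophages held 5 members higher (Cybb, Cyba, Sod2, Nos2 and Acod1) and none lower, where 13.5% of 9458 genes were called higher and 18.2% lower. Nos2 was 7.60- to 23.9-fold higher, Cybb 3.13- to 11.3-fold, Acod1 3.47- to 7.89-fold, Sod2 4.38- to 8.29-fold and Cyba 2.29- to 2.89-fold. Ncf4 stood just outside the rule at 1.95- to 4.13-fold and was called without sample 4, and Ncf1 was called without sample 2. The calls of Acod1 (median log2 ratio 0.77) and Cyba (1.03) were lost with mixed cells assigned to a class, that of Cyba also against T cells alone (1.23), and that of Nos2 (2.58) with every cell thinned to 1000 UMIs. DCs held only Ncf1 higher than lymphoid cells, 3.25- to 16.3-fold, with no member called lower among the 7 tested (Nos2 did not pass the filter on low values), where 9.71% of 9486 genes were called higher and 11.6% lower. Without sample 1, Acod1 was called lower in DCs, with mixed cells assigned Nos2 was called lower (median log2 ratio -2.16), and against T cells alone Cybb was called higher (2.80).

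Between the phagocytes, neutrophils held Ncf1, Rac2 and Acod1 higher than macrophages (8.35% of 8491 genes were called higher) and Cybb lower (36.3% were called lower). Ncf1 was 3.57- to 8.62-fold and Rac2 4.53- to 7.04-fold higher. Relative to monocytes, neutrophils again held Ncf1 (3.11- to 7.62-fold), Rac2 (3.64- to 5.48-fold) and Acod1 (2.52- to 7.75-fold) higher, where 7.62% of 7873 genes were called higher. They held Cybb and Nos2 lower, Nos2 by 2.16- to 2.82-fold, where 27.0% of genes were called lower, a share that 2 of 8 members does not exceed. The lower Nos2 was near the 2-fold line and lost its call with a stricter gate (median log2 ratio -1.07), with mixed cells assigned (-0.99) and with thinning (-1.07). With mixed cells assigned, the calls of Rac2 (1.35) and Acod1 (1.39) in neutrophils against monocytes were lost as well.

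Monocytes and macrophages differed little across the genome: 1.95% of 8219 genes were called higher in monocytes and 4.61% lower. Nos2 and Acod1 were the 2 members called, both higher in monocytes. Nos2 was 3.35- to 5.29-fold higher, with the interval of sample 2 from 2.23 to 6.96, and Acod1 was 2.95- to 4.96-fold higher. Both calls stood under every alternative except the 4-fold rule. DCs held Ncf1 higher than macrophages (7.89% of 9021 genes were called higher) and Cybb, Sod2, Nos2 and Acod1 lower (9.03% were called lower). Cybb was 2.30- to 6.25-fold lower, Sod2 4.04- to 14.6-fold and Acod1 2.69- to 27.0-fold. For Nos2 the ratio rests on 1 to 6 UMIs in DCs, and in sample 2 its interval, 0.00450 to 1.15, includes no difference. The call of Ncf1 was lost with a stricter gate, with mixed cells assigned, with thinning and with the other scaling below, and those of Cybb (-2.19) and Nos2 (-2.03) with thinning.

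**Figure D2:**
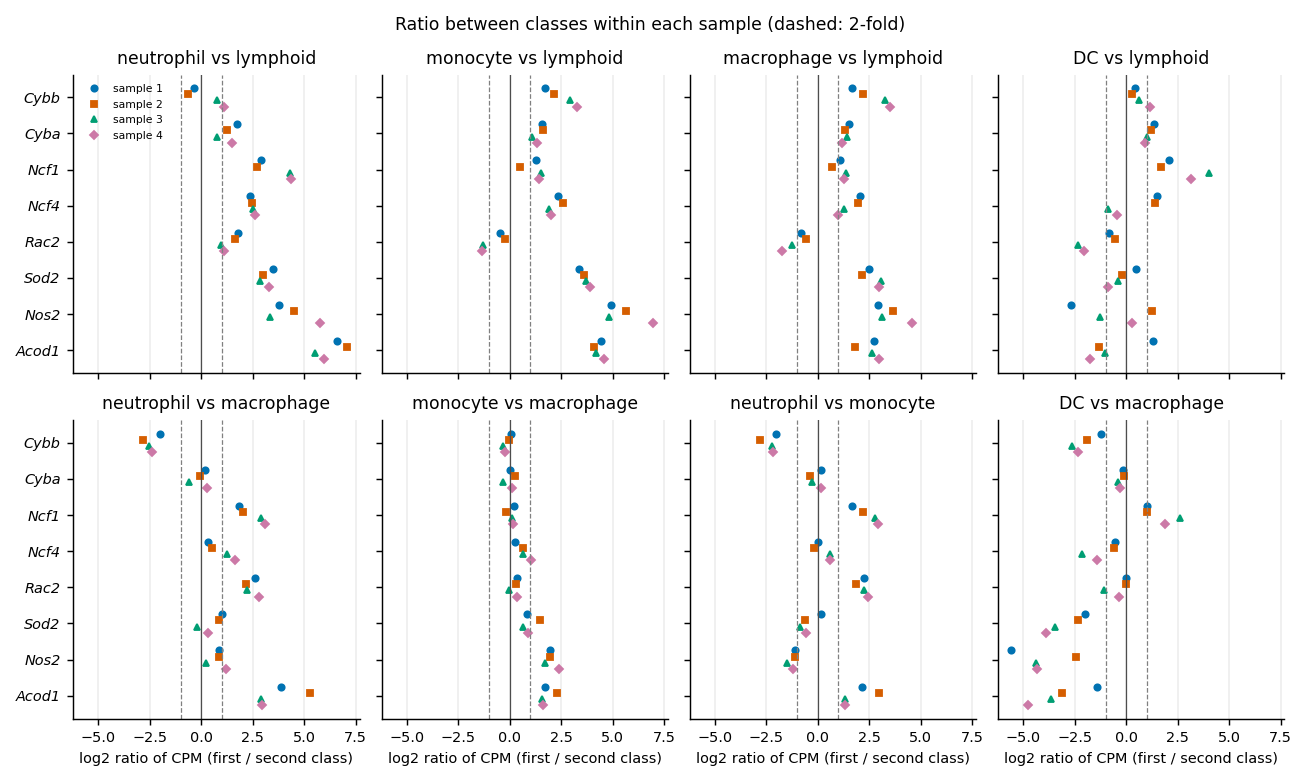
Log2 ratio of CPM between 2 classes of the same sample for the 8 genes, 1 panel a comparison, with 1 point for each of the 4 samples and dashed lines at 2-fold up and down. Acod1 lies above the 2-fold line in neutrophils against lymphoid cells, macrophages and monocytes in all 4 samples, and Cybb lies below it in neutrophils against macrophages and monocytes.

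The median log2 ratio over all genes tested was, on the CPM scale, below 0 wherever neutrophils were the first class: it was -1.24 in neutrophils against lymphoid cells, -0.85 against macrophages and -0.59 against monocytes. It was -0.55, -0.36 and -0.30 for monocytes, macrophages and DCs against lymphoid cells, -0.15 for monocytes and 0.06 for DCs against macrophages. Under median-of-ratios scaling, which centres these medians near 0, the shares called higher and lower became 22.1% and 20.5% for neutrophils against lymphoid cells, 18.9% and 17.4% against macrophages and 16.6% and 12.9% against monocytes. They became 17.1% and 15.6% for monocytes, 16.7% and 13.4% for macrophages and 12.0% and 8.05% for DCs against lymphoid cells, and 2.68% and 3.43% for monocytes against macrophages. On that scale every higher call of Ncf1, Rac2 and Acod1 in neutrophils stood, and Cyba and Rac2 joined the members higher than in lymphoid cells. Cybb lost its lower call against macrophages (median log2 ratio -1.67) and kept the one against monocytes, and Nos2 lost its lower call against monocytes (-0.49). Ncf4 and Nos2 were then called higher in neutrophils than in macrophages.

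The share of cells with at least 1 UMI followed the levels once each cell was thinned to 1000 UMIs. Acod1 was found in 94.8%, 98.2%, 91.9% and 92.1% of neutrophils, in 52.5%, 41.4%, 65.6% and 59.7% of monocytes, in 26.5%, 12.99%, 31.6% and 26.0% of macrophages and in 3.49% to 6.97% of lymphoid cells. Without thinning the shares were 98.7% to 99.7% of neutrophils, 83.6%, 70.5%, 91.8% and 87.7% of monocytes, 66.0%, 34.2%, 72.2% and 57.2% of macrophages and 12.7% to 27.8% of lymphoid cells, so a cell without a UMI at 1000 UMIs is not shown to lack the transcript. Sod2 was found in 35.5% to 54.2% of neutrophils, 48.7% to 69.8% of monocytes, 22.8% to 52.1% of macrophages and 6.17% to 8.99% of lymphoid cells. Nos2 was found in 5.66%, 1.31%, 7.92% and 6.77% of monocytes and 2.51%, 1.14%, 3.79% and 4.06% of neutrophils, beside 0% to 0.984% of B cells, a class that should lack it. In sample 2 the monocyte share was 5 of 382 cells, and in the 4 samples the neutrophil share was lower than the monocyte one. The intervals of these shares overlapped in sample 2 (0.457 to 2.32 in neutrophils and 0.426 to 3.03 in monocytes) and in sample 4 (3.10 to 5.20 and 4.84 to 9.18). Without thinning, Nos2 was found in 13.3%, 4.44%, 24.0% and 20.1% of monocytes, 12.4%, 2.08%, 12.99% and 14.5% of neutrophils and 0% to 1.63% of B cells. There the monocyte and neutrophil intervals overlapped in samples 1 and 2.

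**Figure D3:**
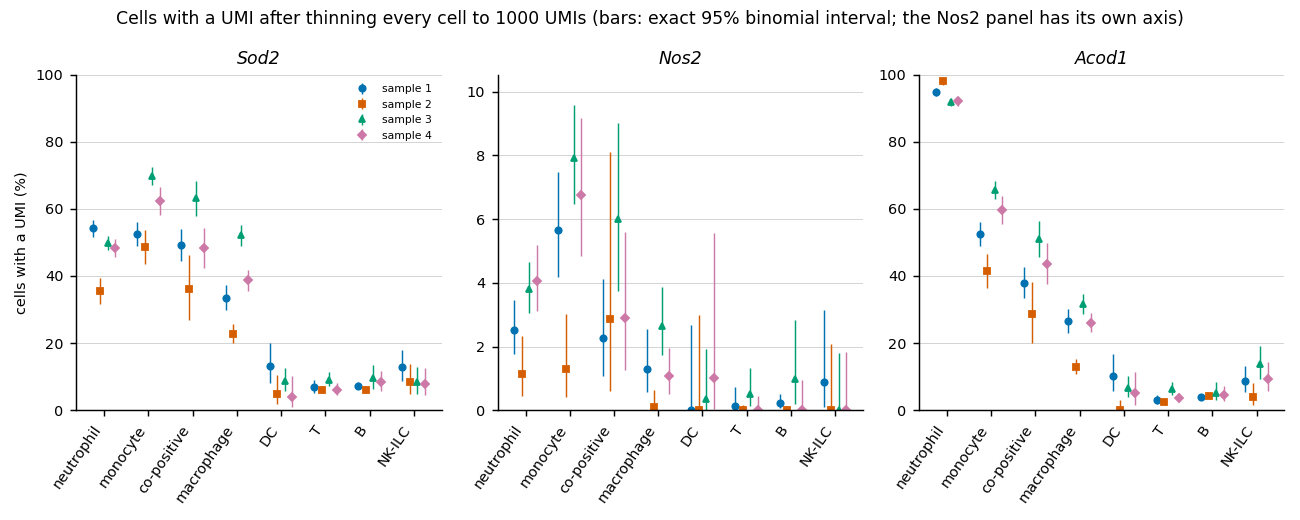
Percent of cells with at least 1 UMI of Sod2, Nos2 and Acod1 after each cell was thinned to 1000 UMIs, by class, with 1 point for each of the 4 samples and exact binomial 95% intervals; the Nos2 panel has its own axis. Acod1 was found in 91.9% to 98.2% of neutrophils, Nos2 in at most 7.92% of the cells of any class shown.

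Of the oxidase members, Cybb was found in 51.2% to 53.1% of thinned macrophages but 7.94% to 14.0% of neutrophils, 20.3% to 26.8% of B cells and 1.94% to 3.51% of T cells. Rac2 was found in 42.3% to 57.4% of neutrophils and Ncf1 in 27.6% to 34.1% of neutrophils and 12.4% to 24.6% of DCs. At least 3 of the 5 oxidase members were seen in the same thinned cell in 9.70% to 20.1% of neutrophils, 4.58% to 13.9% of monocytes, 2.66% to 8.29% of macrophages, 2.04% to 6.62% of DCs and 0.524% to 1.68% of lymphoid cells. All 5 together were seen, without thinning, in 26.6%, 5.75%, 9.52% and 18.8% of neutrophils and 28.2%, 17.5%, 7.35% and 8.38% of monocytes. The share with at least 3 was, after thinning, higher in neutrophils than in monocytes in 4 of 4 samples (20.1%, 17.0%, 9.70% and 13.6% against 11.6%, 13.9%, 4.58% and 6.60%), with the narrowest gap in sample 2, while the share with all 5, at the unequal depths of these cells, had no fixed order.

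Which cells supplied a member's transcripts depended on cell numbers as well as levels. Shares here are of the UMIs of the 6 classes (the 5 and the co-positive cells), for a member or for all genes (all UMIs). Cells outside them are not counted, among them the mixed cells, whose median UMIs exceeded those of all cells kept. Neutrophils held 76.4%, 73.7%, 65.7% and 75.0% of the Acod1 UMIs, although they held 17.2%, 4.73%, 22.8% and 25.5% of all UMIs. Monocytes held 48.0%, 30.5%, 50.1% and 38.1% of the Nos2 UMIs and 13.1%, 5.26%, 18.3% and 10.7% of all UMIs, and neutrophils held a further 29.2%, 12.7%, 22.1% and 39.2%. Lymphoid cells held 37.3%, 70.0%, 30.2% and 35.1% of the Rac2 UMIs, beside 48.8%, 72.5%, 27.4% and 36.2% of all UMIs, so the Rac2 share was above that of all UMIs in sample 3 alone. The largest share of the Cybb UMIs was that of lymphoid cells in samples 1 and 2 (29.9% and 43.3%) and that of macrophages in samples 3 and 4 (37.6% and 43.4%), and monocytes held 26.1%, 13.9%, 31.8% and 22.2%. The lymphoid share of Cybb was 6.16% and 7.71% in samples 3 and 4, and below the lymphoid share of all UMIs in every sample. Such a share mixes the number of cells of a class with the UMIs per cell. Neutrophils, for example, numbered 1401 with a median of 6081 UMIs in sample 1 and 626 with 3174 UMIs in sample 2. How much each adds to the shares was not worked out.

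**Figure D4:**
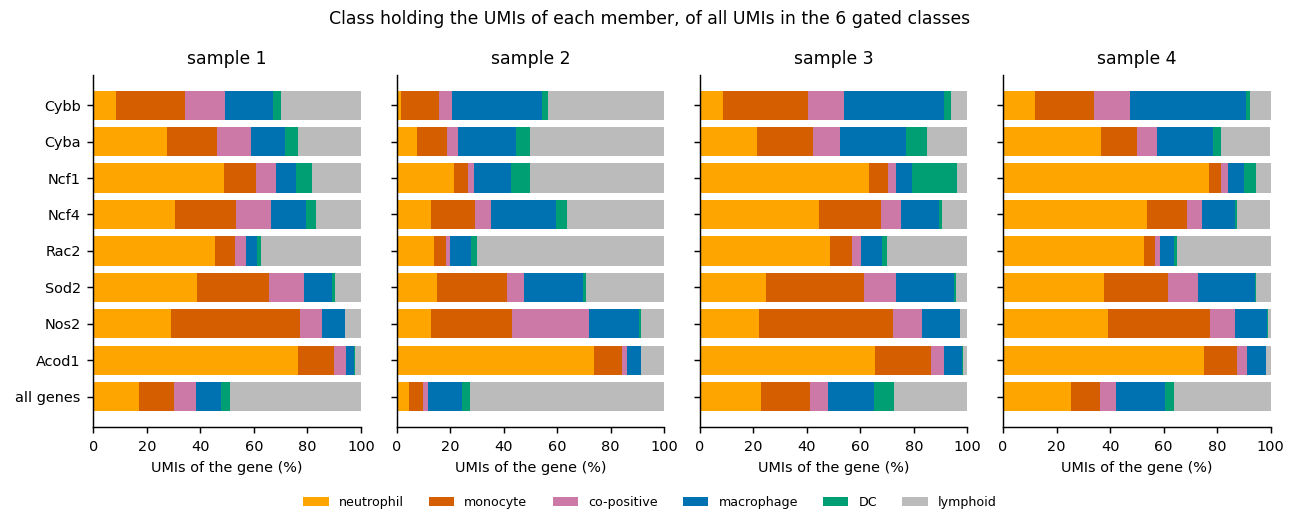
Percent of each gene's UMIs that came from each of the 6 classes, as stacked bars for samples 1 to 4, beside the same for all genes. Neutrophils supplied 65.7% to 76.4% of the Acod1 UMIs of these classes from 4.73% to 25.5% of the UMIs of all genes in them.

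Within monocytes, cells with a Nos2 UMI were compared with cells without one, after thinning. Sod2 was found in 91.3% (interval 79.2 to 97.6) of 46 Nos2-positive monocytes against 50.2% (46.6 to 53.8) of Nos2-negative ones in sample 1, in 83.5% (74.6 to 90.3) of 97 against 68.6% (65.8 to 71.3) in sample 3 and in 89.5% (75.2 to 97.1) of 38 against 60.4% (56.1 to 64.6) in sample 4. Nos2-positive monocytes thus carried Sod2 more often in the 3 samples read, beyond counting error in each, while sample 2 had too few such cells. Acod1 was found in 89.1% (76.4 to 96.4) against 50.3% (46.7 to 53.9) in sample 1, but in 72.2% (62.1 to 80.8) against 65.0% (62.2 to 67.8) and 65.8% (48.6 to 80.4) against 59.3% (54.9 to 63.5) in samples 3 and 4, where the intervals overlapped. Slc7a2 and Ass1 are named here after their values were seen. For Slc7a2, an arginine transporter, the shares were 34.8% against 9.78%, 13.4% against 11.8% and 28.9% against 15.7%. Ass1, which rebuilds arginine from citrulline, was found in 28.3% against 8.47%, 9.28% against 5.77% and 5.26% against 3.25%, and only the first of these differences was beyond counting error.

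In neutrophils the few cells without an Acod1 UMI after thinning could be read as a contrast: 73, 11, 187 and 115 cells. Without thinning 98.7% to 99.7% of neutrophils held an Acod1 UMI, so most cells counted here as negative held one before thinning. The contrast is therefore not one between cells with and without the transcript. Cybb was found less often in Acod1-positive than in Acod1-negative neutrophils, in 12.6% against 27.4%, 7.76% against 18.2%, 8.49% against 14.4% and 13.4% against 20.9%. Sod2 ran the other way, at 54.9% against 41.1%, 35.6% against 27.3%, 50.9% against 38.0% and 49.4% against 35.7%. The direction was the same in 4 of 4 samples for both, though sample 2 rests on 11 negative cells and its intervals overlap. Intervals also overlap for Cybb in sample 4 and for Sod2 in sample 1, and those of Cybb in sample 3 lie close to each other.

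Other genes of these pathways were read from 5 lists, of which 17 are oxidase partners, 22 antioxidant genes, 12 nitric oxide and arginine genes, 20 itaconate and citrate cycle genes and 21 inducers and co-induced genes. Their counts stand beside the shares of all genes called. Of all genes tested, 10.9% were higher and 46.1% lower in neutrophils than in lymphoid cells, and 12.2% and 25.8% in monocytes. The shares were 13.5% and 18.2% in macrophages and 9.71% and 11.6% in DCs. Against macrophages they were 8.35% and 36.3% in neutrophils, 1.95% and 4.61% in monocytes and 7.89% and 9.03% in DCs. Against monocytes they were 7.62% and 27.0% in neutrophils. Among the oxidase partners, 11 passed the filter on low values. Neutrophils held 3 higher than lymphoid cells (among them the GTPase exchange factor Vav3, at 921 to 946 against 129 to 165 CPM, and the kinase Prkcd, at 131 to 212 against 53.6 to 70.8 CPM) and 1 lower (the proton channel Hvcn1, 3.88 to 14.3 against 41.9 to 129 CPM), with a median log2 ratio of 0.93 against -1.24 over all genes. Monocytes held the same 3 higher, Vav3 at 1130 to 1440 CPM, and Hvcn1 and the Rac exchange factor Dock2 lower. Neither lower count, 1 of 11 in neutrophils and 2 of 11 in monocytes, exceeds the share of all genes called lower. Against macrophages, neutrophils held 2 higher, among them the kinase Prkcb (469 to 1000 against 205 to 327 CPM), and Hvcn1 lower, and DCs held 2 lower, among them Prkcb (36.4 to 156 CPM). Under median-of-ratios scaling neutrophils held 7 partners higher and 1 lower than lymphoid cells, and Hvcn1 was no longer lower than in macrophages.

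The antioxidant genes differed in both directions. Neutrophils held 10 of 20 tested higher than lymphoid cells and 4 lower (median log2 ratio 1.74 against -1.24). The cystine carrier Slc7a11 (2900 to 4020 against 56.9 to 136 CPM), glutathione reductase Gsr (1450 to 1640 against 47.8 to 119 CPM), Prdx5 (1400 to 2470 against 56.9 to 125 CPM) and the quinone reductase Nqo1 (11.9 to 17.1 against 1.05 to 1.89 CPM) were higher. The peroxiredoxins Prdx2 and Prdx3, Sod1 and catalase (Cat) were lower, and none of the 4 was lower under median-of-ratios scaling, where 11 were higher. Monocytes held 11 of 19 higher and none lower, among them Slc7a11 (1930 to 3510 CPM) and the haem oxygenase Hmox1 (405 to 1400 against 14.0 to 62.8 CPM). Macrophages held 11 of 20 higher. Against macrophages, neutrophils held 2 of 21 higher (Nqo1 and Slc7a11) and 7 lower, a share that does not exceed the 36.3% of all genes called lower there (7 higher and 5 lower under median-of-ratios scaling), with Gpx3, Prdx1, Cat, Prdx2 and Prdx3 lower under both scalings, and DCs held 7 of 20 lower, among them Hmox1 and Gpx3.

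Of the nitric oxide and arginine genes 8 passed the filter. The 2 arginases parted: Arg2, the mitochondrial one, read 1020 to 1420 CPM in neutrophils, 74.0 to 346 CPM in macrophages and 11.7 to 29.6 CPM in lymphoid cells, while Arg1, the cytosolic one, read 0.463 to 13.1 CPM in neutrophils, 39.1 to 149 CPM in monocytes and 18.0 to 345 CPM in macrophages. Neutrophils held 2 genes higher than macrophages (Arg2 and Pts, of tetrahydrobiopterin synthesis) and 4 lower: Arg1, the arginine carrier Slc7a2 (0.463 to 11.7 against 12.2 to 148 CPM), Ass1 (median log2 ratio -2.42) and Spr, the last step of tetrahydrobiopterin synthesis. The same 4 were lower than in monocytes, and all of these calls stood under median-of-ratios scaling. These 4 of 8 stand beside 36.3% of all genes called lower than in macrophages and 27.0% than in monocytes. The neutrophil sums held Nos2 mRNA beside low levels of the arginine carrier and of Ass1. Sums over a class do not show whether these lie in the same cells. Monocytes held 3 higher than lymphoid cells (Slc7a2 at 49.5 to 316 against 0.392 to 10.5 CPM, Arg2 and Arg1) and none lower, and no gene of the list was called between monocytes and macrophages. DCs held Arg1, Slc7a2 and Arg2 lower than macrophages.

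The itaconate and citrate cycle genes of the list were often lower in neutrophils, as were many genes on the CPM scale: 46.1%, 36.3% and 27.0% of all genes tested were called lower there than in lymphoid cells, macrophages and monocytes. Neutrophils held none of 19 tested higher than lymphoid cells and 12 lower (median log2 ratio -1.68 against -1.24 over all genes), none of 20 higher than macrophages and 13 lower (-1.71 against -0.85) and none of 19 higher than monocytes and 11 lower (-1.29 against -0.59). The isocitrate dehydrogenases Idh2 (0.363 to 4.63 against 19.9 to 31.2 CPM in macrophages) and Idh1 (3.43 to 5.44 against 30.4 to 69.0 CPM), fumarase Fh1 (0.727 to 2.57 against 7.71 to 15.0 CPM) and Idh3a (2.42 to 3.24 against 14.2 to 18.5 CPM) were lower than in macrophages under both scalings. The counts depend on scale and gate: under median-of-ratios scaling 4, 7 and 4 genes were lower and 2, 1 and 0 higher against lymphoid cells, macrophages and monocytes, and with mixed cells assigned 0, 5 and 1 were lower. The median of the list stayed below that of all genes in these 3 comparisons, at -0.44 against -0.04, -0.82 against 0.03 and -0.62 against 0.08 on the log2 scale with median-of-ratios scaling. Monocytes held 1 gene higher than lymphoid cells (Idh1, 25.3 to 34.1 against 2.50 to 4.78 CPM) and 1 lower (Suclg2, a succinyl-CoA ligase subunit), and none was called between monocytes and macrophages.

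Many of the inducers and co-induced genes were higher in the myeloid classes than in lymphoid cells. Neutrophils held 11 of 20 tested higher, the largest being the lipopolysaccharide co-receptor Cd14 (2820 to 4150 against 26.8 to 69.6 CPM), Tlr2, Il1b, the transcription factor Cebpb and Tlr4, and 1 lower (the interferon-gamma receptor chain Ifngr1). Monocytes held 13 higher and none lower, among them Tlr2, Cd14, Il1b (2740 to 3930 against 55.4 to 118 CPM), the interferon-gamma-induced chemokine Cxcl9, Ptgs2 and Tnf. Macrophages held 12 higher and 1 lower (Irf1), and neither lower call stood under median-of-ratios scaling. DCs, in which Acod1 was not called higher and Nos2 was not tested, also held 6 of 20 higher than lymphoid cells and none lower, beside 9.71% of all genes higher. Between monocytes and macrophages only the interferon regulatory factor Irf1 was called (97.8 to 180 against 44.0 to 69.7 CPM), beside Nos2 and Acod1. Neutrophils held Cxcl9 and Il6 lower than monocytes under both scalings. DCs held 6 of 21 lower than macrophages, Tlr4, Cd14, Tlr2, Cebpb and Tnf among them, and 1 higher (Il12b, 81.0 to 247 against 0.400 to 3.49 CPM).

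**Figure D5:**
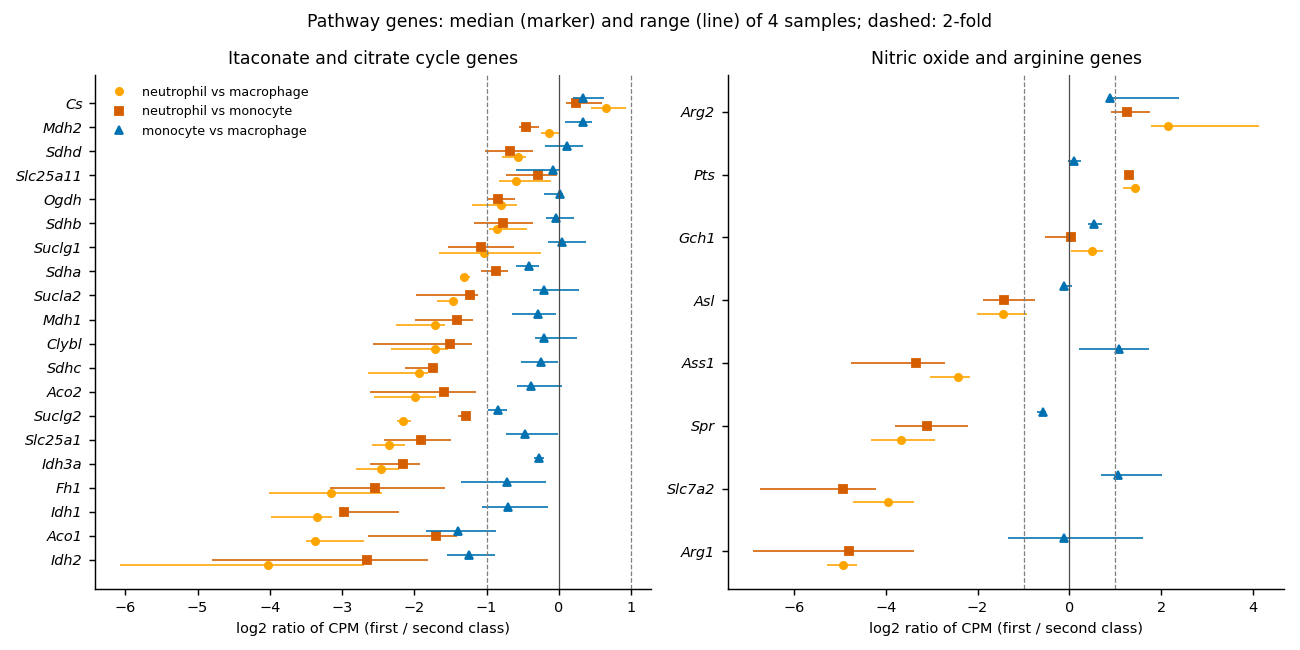
Log2 ratio of CPM for the itaconate and citrate cycle genes (left) and the nitric oxide and arginine genes (right) in neutrophils against macrophages, neutrophils against monocytes and monocytes against macrophages; markers give the median and lines the range of the 4 samples, with dashed lines at 2-fold. On the CPM scale 13 of 20 citrate cycle genes are called lower in neutrophils than in macrophages, and none of either list is called between monocytes and macrophages.

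The genes whose levels ran most like each member were found by Pearson correlation of log2(CPM + 1) over 33 class-by-sample sums, as a description, since the classes of a sample share a library. Nos2 ran most like Sod2 (r = 0.939), Inhba (0.935) and Gpr84 (0.930), Sod2 like Thbs1 (0.973), Tarm1 (0.972) and Igsf6 (0.969), and Acod1 like Sgms2 (0.965), Rab44 (0.949) and Cebpb (0.949). Cybb ran like Unc93b1 (0.952), Trim25 (0.944) and Atp6v0b (0.924), and Cyba like Gng5 (0.974), Ifitm3 (0.956) and Znhit1 (0.951). Ncf1 ran like Snap23 (0.918) and Rac2 like Def6 (0.895), and Igfbp6 (0.938) was among the 3 genes most like Ncf4. Among the members themselves, r was 0.94 for Sod2 with Nos2, 0.90 for Sod2 with Acod1 and 0.83 for Nos2 with Acod1, and Ncf4 ran with Sod2 and Acod1 at 0.83 and 0.82. Between the oxidase members r was 0.80 for Cyba with Ncf4, 0.62 for Cybb with Ncf4, 0.58 for Cybb with Cyba, 0.55 for Cyba with Ncf1 and 0.54 for Ncf1 with Ncf4. It was 0.32 for Cybb with Ncf1 and between -0.42 (Cybb) and 0.30 (Ncf4) for Rac2 with the other oxidase members.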

How the data were processed

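LP CD45+ cells were measured by droplet single-cell RNA-seq, and the deposited values are raw UMI counts per gene and cell, 1 filtered matrix per sample. The file header names Cell Ranger 7.0.1, while the submitters' processing notes name Cell Ranger 5.0.0, STAR, Seurat and mm10. Nothing was normalized by the authors in these files.

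Cells with at least 200 genes and under 20% mitochondrial UMIs were kept. A class needed 5 of its markers (4 for T, B, NK-ILC and non-leukocyte or mast cells). These minimums were chosen after seeing how many markers cells carried, before members were read. Cells meeting gates of unlike classes were set aside, cells meeting no gate were left out, no doublet caller was run, and no cells were clustered. UMIs were summed per class and sample. Exact Poisson, binomial and conditional 95% intervals cover counting error, at 72509408 to 135516016 UMIs a sample. In ratios, a count of 0 was set to 3 counts. Without groups in the labels, no test was run. Text names all members, list genes called in a comparison (up to 6 a list) and the 3 genes most like a member. Members and lists were chosen with earlier results of these data known. Alternatives covered gates, filters, thinning, scaling, folds, T cells alone and each sample left out. Some list genes and genes like a member are not reported here. The call script was tested on simulated counts. Python 3.11.15, numpy 2.4.6, scipy 1.17.1, pandas 2.3.3 and matplotlib 3.10.9 were used.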

Additional observations from a re-analysis of the deposited data

Results flagged for a closer look

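Cells set aside as non-leukocyte or mast cells, which entered no comparison, held some members above the lymphoid cells of their own sample. Sod2 read 492 to 873 CPM in fibroblast-gated cells of 4 samples (median 673, from 70, 86, 368 and 162 cells). In endothelial-gated cells it read 244 CPM in sample 3 (69 cells) and 202 CPM in sample 4 (52 cells), with a median of 223 CPM. It read 119 CPM in 64 epithelial-gated cells of sample 2, beside 69.8 to 113 CPM in lymphoid cells. Nos2 read 34.3 CPM (36 UMIs in 11 cells, interval 24.0 to 47.5) in the same 64 epithelial-gated cells, above the 15.0 CPM of the monocytes of that sample. Mast cells were read in sample 2 only (65 cells), where Ncf1 was 252 CPM against 55.8 CPM in lymphoid cells and Rac2 was 355 CPM against 271 CPM. These cells came through the sort for CD45+ cells.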

How the results depend on the processing

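No paired analysis was possible because the labels put the samples in no group and the replicate number only names a sample. No call changed sign under any alternative. At 4-fold, members called numbered 3 in monocytes, 2 in macrophages and 0 in DCs against lymphoid cells, 2 in neutrophils, 0 in monocytes and 2 in DCs against macrophages, and 1 in neutrophils against monocytes. At 1.5-fold DCs against lymphoid cells gave 2. With mixed cells assigned to a class, macrophages gave 3 and DCs 2 against lymphoid cells, and neutrophils against monocytes gave 2. DCs against lymphoid cells also gave 2 under median-of-ratios scaling and against T cells alone (an alternative chosen after seeing the data), and 1 to 2 when each sample was left out in turn. Thinning left 2 members in DCs against macrophages. Of the other values, 107 summary values stayed within 1.5 times. Of the single ratios, 803 kept their status, whether called or not called, 38 lost a call and 23 gained one. With mixed cells assigned, genes called lower in neutrophils went from 46.1% to 5.28% against lymphoid cells and from 36.3% to 11.0% against macrophages, and those called lower and higher against monocytes from 27.0% to 4.43% and from 7.62% to 3.80%. Those called lower in monocytes against lymphoid cells went from 25.8% to 7.45%. The cause was not tested. Of the 24 genes most like a member, 16 were kept with a pseudocount of 10. The ratio of Acod1 detection by Nos2 in monocytes was 1.11 thinned and 1.13 not thinned. DC counts and Nos2 in sample 2 are limited by few cells and UMIs.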
